A study of Mus musculus with 60 samples.

Results

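The effector genes of the type I interferon response were followed in spleen leukocytes of young NOD mice and of the control strains NON and C57BL/6 (C57). The genes named for this purpose were Ifit1, Ifit2, Ifit3, Isg15, Mx1, Oasl2, Rtp4, Irf7, Usp18 and Ifi44, and all probe sets that the annotation of the arrays gives to any of the 10 by symbol or alias were taken. The members were 10 probe sets of 9 genes, of 45037 probe sets in all, each of them on the 430A array. No probe set carried the name Ifi44, so this gene was not analysed here. Rtp4 had a second probe set with a mean signal of 10.7 over the 30 mice. It was the single member that did not reach a signal of 50 in at least 5 mice, the minimum set for testing, and 9 member probe sets, 1 for each gene, were tested among 38293. The probe set of Isg15 also lists the gene Gm9706, so its signal cannot be given to Isg15 alone.

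NOD mice develop autoimmune (Type 1) diabetes without treatment. Neither NON nor C57, its controls here, does so. Female mice were taken at 4 weeks and at 2 weeks of age, with 5 mice for each strain at each age (NOD 4 weeks, NOD 2 weeks, NON 4 weeks, NON 2 weeks, C57 4 weeks and C57 2 weeks), and the leukocytes were neither cultured nor treated. RNA of each mouse was hybridised to a 430A and a 430B array. Expression is given as the MAS 5.0 signal, a linear array intensity that was scaled to the same trimmed mean on every array. Spleen leukocytes are a mixture, so fewer cells of a type and less RNA per cell cannot be told apart in these data.

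Type I interferons, the interferon-alpha family and interferon-beta, bind the receptor made of Ifnar1 and Ifnar2. The kinases Jak1 and Tyk2 then signal to the nucleus, where Irf9 takes part in binding the interferon-stimulated response element in front of interferon-induced genes. Plasmacytoid dendritic cells are known as strong producers of interferon-alpha, and most leukocytes respond to it. The products act at different points. Irf7 is a transcription factor that drives the interferon-alpha genes, Usp18 strips Isg15 from proteins and damps the receptor, Isg15 is a ubiquitin-like modifier, the Ifit proteins and Oasl2 belong to families that sense or bind viral RNA, Mx1 is a dynamin-like GTPase that blocks influenza virus, and Rtp4 is an interferon-induced chaperone of G protein-coupled receptors.

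RefSeq promoter windows, from 250 bases before to 50 bases after a transcription start, were found for 7 of the 10 genes (8 windows). The core of the response element was searched as GAAA, NN (any bases) and GAAA in 1 run, on both strands with overlaps allowed, so that a match on the opposite strand reads TTTC, NN and TTTC. Of all 32851 windows of this length 1131 (3.44%) held a match, and of the 8 windows of the effector genes 3 did. These 3 are shown because they hold a match, with the matching bases in capitals.
Isg15 (GRCm38.p6, chr4:156200769-156201068, minus strand): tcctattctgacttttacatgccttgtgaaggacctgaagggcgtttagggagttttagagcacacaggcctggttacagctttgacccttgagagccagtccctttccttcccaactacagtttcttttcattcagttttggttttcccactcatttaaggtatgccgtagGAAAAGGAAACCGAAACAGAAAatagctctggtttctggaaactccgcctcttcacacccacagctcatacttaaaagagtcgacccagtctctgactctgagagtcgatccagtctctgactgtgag
Ifit1 (GRCm38.p6, chr19:34640639-34640938, plus strand): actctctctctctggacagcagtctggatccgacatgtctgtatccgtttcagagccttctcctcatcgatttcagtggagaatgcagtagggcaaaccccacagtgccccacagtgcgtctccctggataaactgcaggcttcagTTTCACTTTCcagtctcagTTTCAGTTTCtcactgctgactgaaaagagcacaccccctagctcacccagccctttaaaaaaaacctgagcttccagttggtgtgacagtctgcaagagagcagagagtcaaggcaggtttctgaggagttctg
Ifit3 (GRCm38.p6, chr19:34583279-34583578, plus strand): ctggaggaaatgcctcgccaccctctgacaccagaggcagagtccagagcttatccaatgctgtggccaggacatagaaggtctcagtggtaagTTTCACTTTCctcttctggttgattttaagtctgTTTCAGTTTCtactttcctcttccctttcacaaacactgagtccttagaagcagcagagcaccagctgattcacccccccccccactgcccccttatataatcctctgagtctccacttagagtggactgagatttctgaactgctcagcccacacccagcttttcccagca
In Isg15, 3 overlapping matches on the strand of the gene began 78, 72 and 66 bases before the start and ran together. In Ifit1 the matches, both on the opposite strand, began 104 and 85 bases before the start, and in Ifit3 they began 156 and 122 bases before it. The windows of Ifit2, Irf7, Oasl2 and Ifi44 held no match to these letters.

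In each of the 3 strains, all 9 genes had higher mean signals at 4 weeks than at 2 weeks, and 16.9% of all probe sets tested had log2 differences above 0 in the 3 strains. Rtp4 was 4.11-fold higher at 4 weeks in NOD, 2.75-fold in NON and 2.5-fold in C57. The median ratio of 4 to 2 weeks over the 9 genes was 1.81 in NOD, 1.6 in NON and 1.79 in C57. Averaged over the strains, 7 of the 9 genes were higher at 4 weeks with an adjusted p under 0.05, as were 1.31% of all probe sets tested. In the averaged contrasts below, counts of genes that rose, fell, or were higher or lower are of those that passed this threshold.

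Rtp4 differed most. Its signals in NOD mice were 410.2, 632.2, 651.9, 473.5 and 366.1 at 4 weeks, against 164.9, 101.3, 72.3, 168.5 and 108.8 at 2 weeks. In NON mice they were 522.3, 207.2, 349.4, 360.4 and 251.3 at 4 weeks, against 199.2, 64.9, 103.3, 105.9 and 142.2 at 2 weeks. In C57 mice they were 861.3, 654.1, 693, 1000.8 and 866.5 at 4 weeks, against 291.6, 360.4, 557.2, 241.6 and 178.8 at 2 weeks. In each strain, every mouse of 4 weeks was above every mouse of 2 weeks. The log2 difference, on log2(signal + 10), was 1.98 in NOD (standard error 0.28, limma adjusted p = 0.075), 1.4 in NON (standard error 0.32, adjusted p = 0.15) and 1.38 in C57 (standard error 0.28, adjusted p = 0.12). Fitted on the 10 mice of a strain, none of the 3 passed an adjusted p of 0.05 over all probe sets.

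With each strain fitted alone, few probe sets of any kind passed. In NOD 6 of the 38293 probe sets passed (0.0157%), in NON 23 (0.0601%) and in C57 41 (0.107%), and none of them was a member. At an unadjusted p under 0.05, 6 of the 9 member probe sets passed in NOD, 7 in NON and 6 in C57, each with the higher signal at 4 weeks, against 3.49%, 5.39% and 4.17% of all probe sets that passed in this direction. With all 30 mice in 1 fit, the age difference of Rtp4 passed in each strain (adjusted p = 0.002 in NOD mice, 0.014 in NON mice and 0.025 in C57 mice). More probe sets of any kind passed there, 56 of the 38293 in NOD, 560 in NON and 176 in C57. No other member passed in that fit.

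The contrast of 4 weeks minus 2 weeks averaged over the 3 strains, fitted on the 30 mice, was chosen after the values had been seen. In it Rtp4 had a log2 difference of 1.59 (standard error 0.17, limma adjusted p = 2.4e-06). The next by adjusted p were Irf7 with 0.67 (standard error 0.12, adjusted p = 0.0012), Ifit3 with 0.83 (standard error 0.15, adjusted p = 0.0013) and Oasl2 with 0.83 (standard error 0.17, adjusted p = 0.0036). Ifit1 had 0.8 (standard error 0.19, adjusted p = 0.016) and the Isg15 probe set 0.55 (standard error 0.13, adjusted p = 0.018). Usp18 had 0.61 (standard error 0.17, adjusted p = 0.043). Ifit2, at 0.45 (adjusted p = 0.066), and Mx1, at 0.5 (adjusted p = 0.086), did not pass. The median of the 9 was 0.67, and that of all probe sets tested was 0.01.

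**Figure D1:**
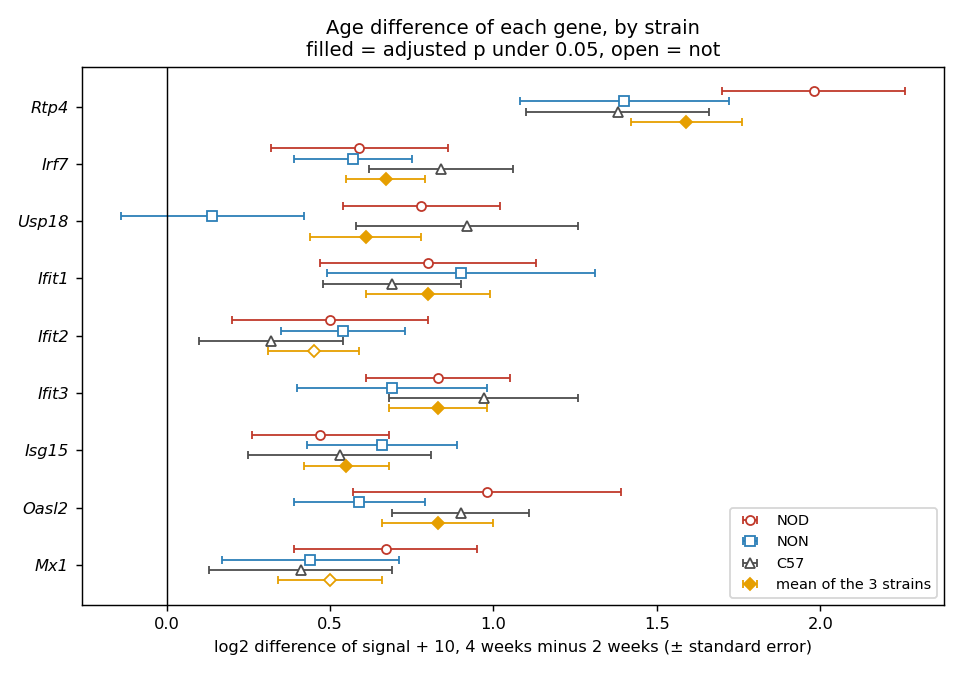
Log2 difference of signal + 10 between 4 and 2 weeks for the 9 tested genes (4 weeks minus 2 weeks, x axis) for each strain and as the mean of the 3 strains, with bars of 1 standard error. All points lie above 0, and the filled points, those with an adjusted p under 0.05, are 7 of the 9 averaged differences and none of those of a single strain.

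Of the 7 genes that rose, the 6 other than Usp18 passed in this contrast whichever single mouse was left out and under each of the 7 other settings tried for it. Usp18 lost its call in 20 of the 30 fits that left out 1 mouse (adjusted p up to 0.082), with the replicate number as a block (adjusted p = 0.055) and without the filter on dim probe sets (0.05). One NOD mouse of 4 weeks (replicate 3) stood apart, with a median correlation of 0.78 with the mice of its group, against 0.858 to 0.902 in the other 29 mice. It had the lowest Ifit1 signal of its group (59.2) and the highest Rtp4 (651.9). Without it 7 of the 9 still passed.

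Irf7 had signals of 192.1, 426.8, 191.2, 302.9 and 308.5 in NOD mice of 4 weeks and 167.8, 175, 128, 208.3 and 225.1 in NOD mice of 2 weeks. In NON they were 280.3, 223.5, 258.3, 266.8 and 302.3 at 4 weeks and 206.2, 140.5, 159.3, 185 and 192.3 at 2 weeks. In C57 they were 334.2, 332.9, 446.5, 411.6 and 616.4 at 4 weeks and 197.8, 175.4, 265.6, 264.7 and 251.6 at 2 weeks. The ages did not overlap in NON and in C57, whereas in NOD mice the 2 lowest mice of 4 weeks lay within the range of 2 weeks.

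Usp18 is the feedback inhibitor of the receptor. In NOD its signals were 229.6, 202.8, 113.3, 141.8 and 158.5 at 4 weeks, against 60.4, 96.8, 100.5, 96.9 and 113.2 at 2 weeks. In C57 they were 180.4, 214, 187.3, 296.4 and 274.5 at 4 weeks, against 137.6, 65.9, 234.6, 147.3 and 59.1 at 2 weeks. In NON they were 137.2, 77.4, 127.8, 100.7 and 101 at 4 weeks, against 122.8, 51.4, 80, 105.3 and 151.1 at 2 weeks, so that the ages overlapped widely and the ratio was 1.07. The log2 age difference was 0.78 in NOD, 0.92 in C57 and 0.14 in NON, and the test of age by strain across the 3 strains did not pass (limma F-test, p = 0.15, adjusted p = 0.8, with 0.00261% of all probe sets passing).

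The Ifit genes lie side by side on chromosome 19. Ifit3 had signals of 154.6, 239.9, 299.8, 213.1 and 206.1 in NOD mice of 4 weeks and of 93.4, 103.9, 138.5, 131.5 and 128.5 in those of 2 weeks, with no overlap. In NON its range was 117.2 to 276.7 at 4 weeks and 63.3 to 153.3 at 2 weeks, and in C57 it was 179.8 to 297.6 at 4 weeks and 73.9 to 208.7 at 2 weeks. Both of these pairs overlapped. Ifit1 had signals of 125.3, 229.7, 59.2, 170.8 and 133.9 in NOD mice of 4 weeks and of 75.8, 49.9, 64.4, 71.9 and 107.3 in those of 2 weeks, and only the mouse that stood apart fell below the highest mouse of 2 weeks. Its range was 70.4 to 146.4 in NON and 161.9 to 210 in C57 at 4 weeks, against 10.9 to 102.9 in NON and 71.8 to 164.9 in C57 at 2 weeks. Ifit2 was 1.39-fold higher at 4 weeks in NOD, 1.53-fold in NON and 1.24-fold in C57. It was the flattest of the 3 by the averaged difference, and its ages were apart in NON alone (97.7 to 157.6 at 4 weeks, against 61.2 to 86.6 at 2 weeks).

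Oasl2, of the oligoadenylate synthetase family, was dim, and 3 of the 5 NOD mice, 2 of the 5 NON mice and 4 of the 5 C57 mice reached a signal of 50 at 2 weeks. Its signals in C57 were 116.4, 112.4, 137.3, 150 and 115.7 at 4 weeks, against 38.6, 64.2, 83.6, 81.6 and 55.2 at 2 weeks. In NOD they were 60.9, 149.9, 135.1, 84.2 and 131.3 at 4 weeks, against 13.4, 35.9, 71.5, 74.1 and 88.3 at 2 weeks. The ages were apart in C57 and in NON (67.3 to 97.6 at 4 weeks, against 35.8 to 65.6 at 2 weeks) and overlapped in NOD. The Isg15 probe set averaged 186 ± 41.8 in NOD at 4 weeks and 131 ± 23.8 at 2 weeks (SD, n = 5 each), 142 ± 26.8 in NON at 4 weeks and 87.6 ± 21.9 at 2 weeks, and 166 ± 58.5 in C57 at 4 weeks and 108 ± 25.6 at 2 weeks. Mx1 averaged 127 ± 52.4 in NOD at 4 weeks and 71.9 ± 11.3 at 2 weeks, 89.1 ± 17.3 in NON at 4 weeks and 66.5 ± 30.2 at 2 weeks, and 120 ± 18.2 in C57 at 4 weeks and 94 ± 37.4 at 2 weeks. RefSeq lists Mx1 as a transcribed pseudogene in the reference genome, which is that of a C57BL/6 strain, and the gene is known to be disrupted in many inbred strains, so its signal is a level of RNA and no measure of the protein.

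Counted over the genes, all 5 mice of 4 weeks were above all 5 mice of 2 weeks for 3 of the 9 genes in NOD (Ifit3, Rtp4 and Usp18), for 5 in NON (Ifit2, Isg15, Oasl2, Rtp4 and Irf7) and for 3 in C57 (Oasl2, Rtp4 and Irf7). Of all probe sets tested, 0.763% were apart in this direction in NOD, 1.67% in NON and 0.88% in C57. Whether NOD differed from the controls in its age change was tested on the 30 mice. The difference between the age change of NOD and the mean age change of the controls ran from -0.12 to 0.59 on the log2 scale, and 0 of the 9 passed in limma (0 of 9 at an unadjusted p under 0.05, against 6.2% of all probe sets, and 0% of all probe sets after adjustment). Rtp4 had the largest of the 9, at 0.59 (p = 0.12, adjusted p = 0.84).

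**Figure D2:**
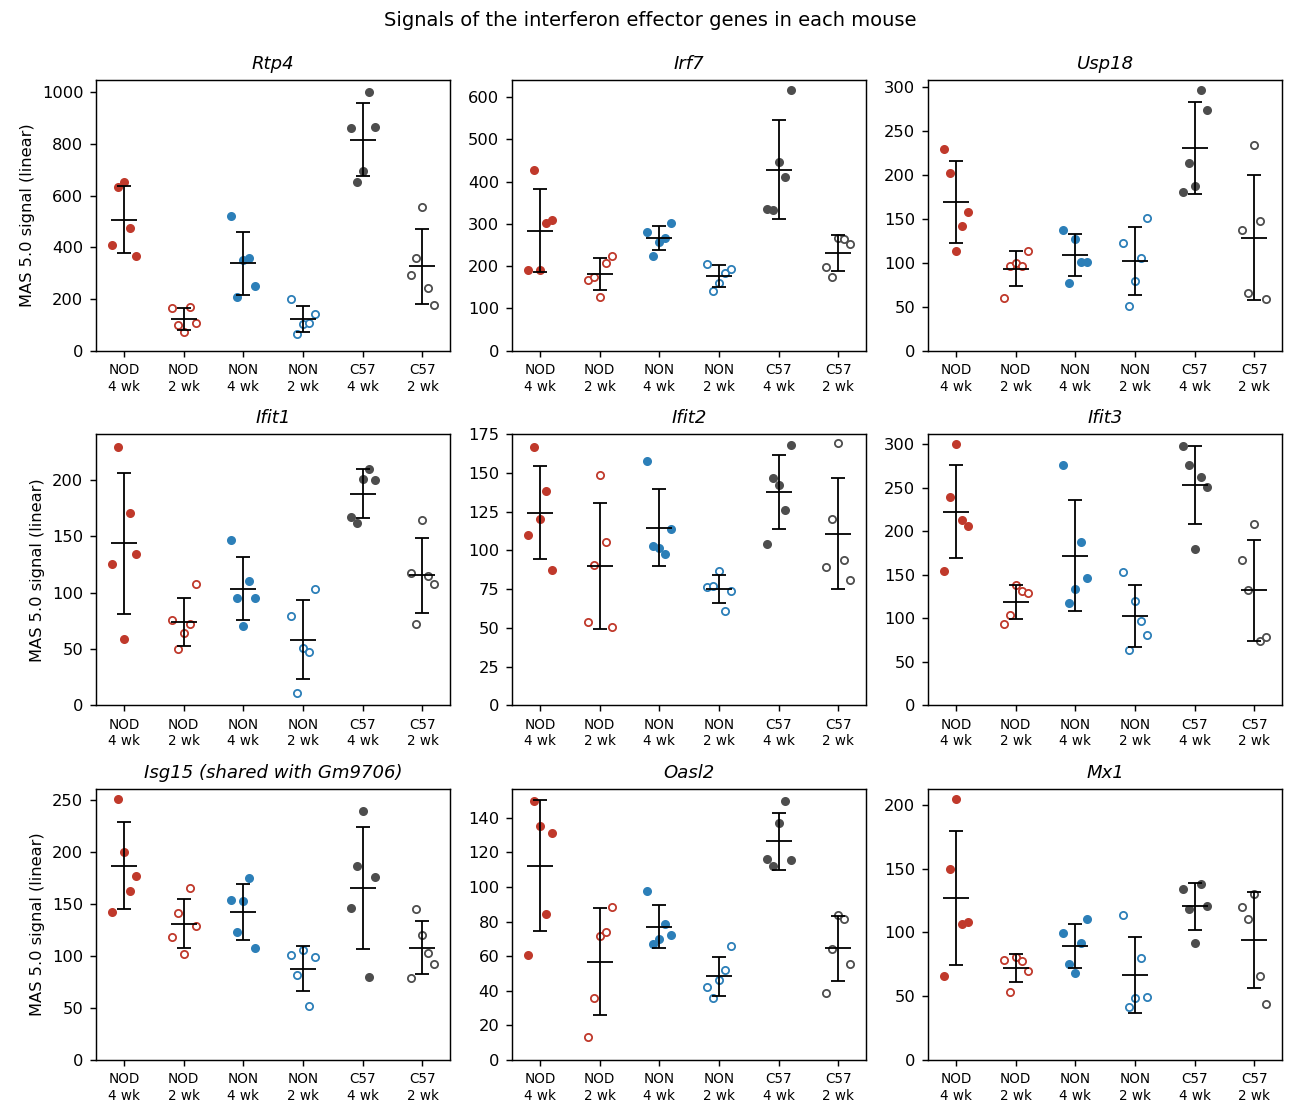
MAS 5.0 signal (linear, y axis) of the 9 tested probe sets in each of the 30 mice by strain and age. Filled points are mice of 4 weeks and open points mice of 2 weeks, and the black bars give the mean ± SD of 5 mice. Rtp4 had its highest group mean in C57 mice of 4 weeks (815) and the same mean of 123 in NOD and NON mice of 2 weeks.

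NON means were below C57 means for all 9 genes at both ages, with a median ratio of NON to C57 of 0.622 at 4 weeks and 0.747 at 2 weeks. The median log2 difference of NON minus C57 was -0.64 at 4 weeks and -0.36 at 2 weeks, and over all probe sets it was -0.01 and 0.03 at these ages. NOD means were above NON means for 9 of the 9 genes at 4 weeks and above C57 means for 2, with a median ratio of NOD to C57 of 0.88 at 4 weeks and 0.783 at 2 weeks. Of the 6 groups, C57 mice of 4 weeks had the highest mean for 7 of the 9 genes and NOD mice of 4 weeks for the other two, Isg15 and Mx1, while NON mice of 2 weeks had the lowest mean for 8. Of all probe sets tested, 29.8% had their highest strain mean in C57 at 4 weeks and 29.1% at 2 weeks. NON had the lowest strain mean for 33.7% at 4 weeks and 32.7% at 2 weeks. These shares compare the strains within an age and not the 6 groups. The 9 genes varied together within groups (median correlation of pairs 0.29), so counts over genes are not independent. Within an age, Rtp4 was the one gene for which NOD and C57 mice did not overlap.

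Rtp4 was the only member to pass a strain test at a single age. At 4 weeks the moderated F-test across the 3 strains gave an adjusted p of 0.041 (limma), while 1.51% of all probe sets passed, and at 2 weeks it gave 0.068, while 1.66% passed. Its signal averaged 507 ± 129 in NOD mice, 338 ± 122 in NON mice and 815 ± 142 in C57 mice of 4 weeks (SD, n = 5). NON was 0.415 of C57 (log2 difference -1.3, standard error 0.25, adjusted p = 0.025) and NOD was 0.622 of C57 (log2 difference -0.69, standard error 0.25, adjusted p = 0.25). Of all probe sets, 0.794% passed between NON and C57 and 1.13% between NOD and C57 at 4 weeks. All NOD and all NON mice of 4 weeks were below all C57 mice of that age. At 2 weeks it averaged 123 ± 42 in NOD mice, 123 ± 50.6 in NON mice and 326 ± 145 in C57 mice. The log2 differences from C57 at this age did not pass (-1.29 for NOD, adjusted p = 0.1, where 0.841% of all probe sets passed, and -1.32 for NON, adjusted p = 0.064, where 1.56% passed). The call of the F-test at 4 weeks was lost in 12 of the 15 fits that left out 1 mouse (adjusted p up to 0.11) and was kept without replicates 2 or 3 of NOD or replicate 1 of NON. The call of NON against C57 at 4 weeks was lost in 5 of 15 (without replicates 2 or 5 of NON or replicates 1, 4 or 5 of C57, adjusted p up to 0.072), and also with the methods' test (adjusted p = 0.077) and with a replicate block (0.073).

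The same contrasts averaged over both ages, also chosen after the values had been seen, gave Rtp4 a log2 difference of -1.31 for NON minus C57 (standard error 0.21, adjusted p = 0.00017) and of -0.99 for NOD minus C57 (standard error 0.21, adjusted p = 0.0038). Ifit1 was also lower in NON than in C57, with a difference of -0.93 on the same scale (standard error 0.24, adjusted p = 0.017), and it measured -0.52 for NOD minus C57 (adjusted p = 0.22). Irf7 had -0.5 for NON minus C57 (adjusted p = 0.051) and -0.47 for NOD minus C57 (adjusted p = 0.063), on the edge of the threshold in both. In all, 2 of the 9 genes were lower in NON than in C57, against 2.71% of all probe sets, and 1 of the 9 was lower in NOD than in C57, against 2.94%. The C57 arrays are shared by both contrasts.

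At 4 weeks 5 of the 9 genes (Ifit1, Oasl2, Rtp4, Irf7 and Usp18) had all NON mice below all C57 mice, as had 1.84% of all probe sets, and at 2 weeks none had, against 2.44%. Usp18 came nearest to the threshold after Rtp4, with 109 ± 23.9 in NON and 231 ± 52.3 in C57 at 4 weeks (log2 difference -1.01, standard error 0.23, adjusted p = 0.058). It passed in 1 of the 15 fits that left out 1 mouse, the one without the NOD mouse that stood apart (adjusted p from 0.035 to 0.16 over the 15). Between NOD and C57 only Rtp4 was apart, lower in NOD at both ages, as were 2.15% of all probe sets at 4 weeks and 2.1% at 2 weeks. Between NOD and NON no gene was apart at either age (1.34% of all probe sets were higher in NOD and apart at 4 weeks and 1.44% at 2 weeks). In limma 0 of the 9 passed between NOD and NON at 4 weeks (0.582% of all probe sets) and 0 of the 9 at 2 weeks (0.546%). At an unadjusted p under 0.05 there were 2 of 9 at 4 weeks, against 10.7% of all probe sets, and 1 of 9 at 2 weeks, against 9.45%.

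The study looked for genes that set NOD apart from both controls. The contrast of NOD minus the mean of NON and C57 passed for 0 of the 9 in limma at 4 weeks, where 0.804% of all probe sets passed, and for 0 of the 9 at 2 weeks, where 0.499% passed. At an unadjusted p under 0.05 the counts were 0 of 9 at 4 weeks, against 12.7% of all probe sets, and 2 of 9 at 2 weeks, against 9.44%. The log2 differences ran from -0.28 to 0.29 at 4 weeks (median 0.07) and from -0.64 to 0.41 at 2 weeks (median -0.09), and the median of all probe sets was 0.05 and 0.06 at these ages.

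**Figure D3:**
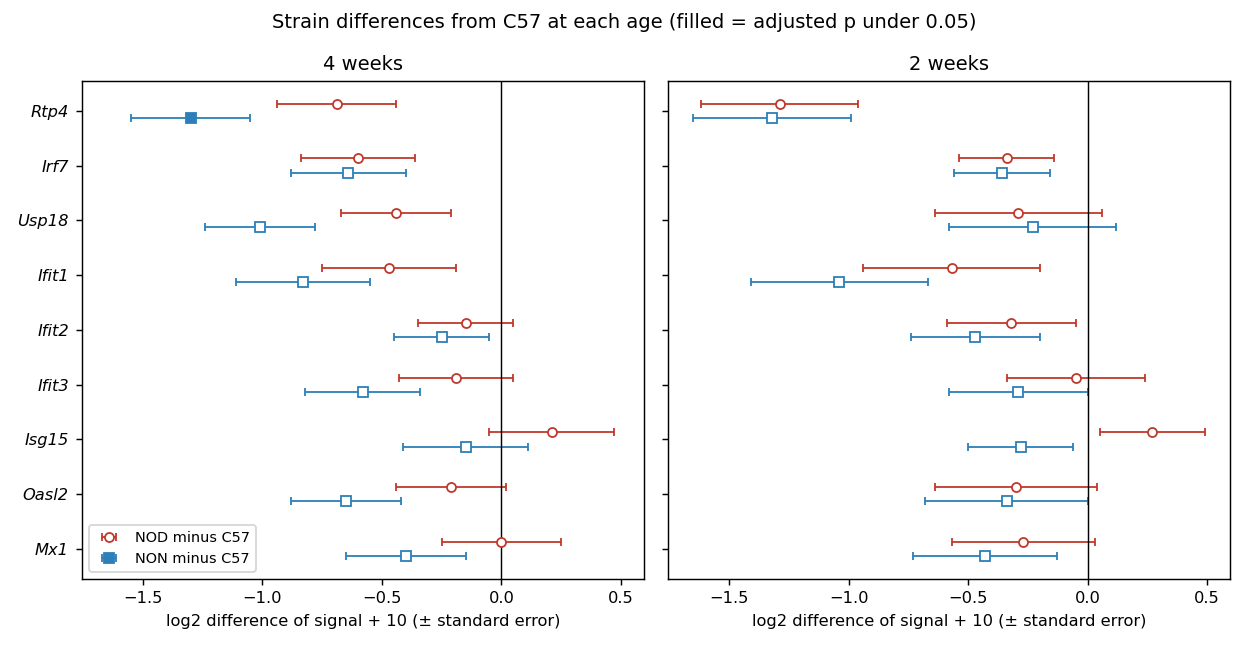
Log2 difference of signal + 10 of NOD minus C57 and of NON minus C57 (x axis) for the 9 tested genes at 4 weeks (left) and 2 weeks (right), with bars of 1 standard error. All NON points lie below 0, and the single filled point, with an adjusted p under 0.05, is Rtp4 in NON minus C57 at 4 weeks.

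The members varied together within groups to a modest degree. Over the 36 pairs of genes, the correlation across the 30 mice, each value taken as its deviation from the group mean, had a median of 0.29 and ran from -0.07 (Usp18 with Isg15) to 0.78 (Ifit3 with Mx1), and 35 pairs were above 0. Single mice stood high or low in many genes at once. Replicate 3 of C57 at 2 weeks had the highest signal of its group in 8 of the 9 genes, replicate 1 of NON at 4 weeks in 6, and replicate 2 of NON at 2 weeks had the lowest in 7. The last of these mice had the highest Gapdh 3'/5' ratio of the 30 (4) and the lowest median signal on 430A (84.8), and replicate 1 of NON at 4 weeks had a ratio of 3.15. Without replicate 2 of NON at 2 weeks, the log2 difference of NOD minus NON at 2 weeks was above 0 for 5 of the 9 genes, against 8 with it. Rtp4 and Ifit1 passed in NON minus C57 over both ages whichever single mouse was left out. These correlations are a description over mice that share arrays of the same kind and carry no test.

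The probe sets most like the members by this measure, taken as the correlation with the mean of the 9 standardised signals, included 3 interferon-induced GTPases of the immunity-related family, Irgm2 (r = 0.707), Iigp1 (0.683) and Igtp (0.632), and Irf9 (0.665), the DNA-binding partner of Stat2. The remainder of the first 10 were Prpf31 (0.724), Tut1 (0.666), Zbtb3 (0.656), Stip1 (0.647), Tmie (0.643) and Med12 (0.627), picked as the highest over all probe sets with 1 gene symbol.

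The rest of the pathway was read on the probe set with the highest mean signal of each gene. Among the ligands, 5 of 11 listed genes were measured, all dim, and 0 of 5 passed in the age difference averaged over the strains (median log2 difference 0.02). Ifna2, an interferon-alpha gene, was the only one to pass any strain contrast, with 61.4 ± 18.5 in NOD, 13.3 ± 4.02 in NON and 23.3 ± 27.2 in C57 at 4 weeks (log2 difference of NOD from the controls 1.46, limma adjusted p = 0.045), and these means lie close to or below the minimum of 50. At 2 weeks it averaged 60.8 ± 55.4 in NOD, 15.3 ± 11.5 in NON and 53.2 ± 40.8 in C57. Ifnb1 averaged 81.6 in NOD, 60.3 in NON and 81 in C57 at 4 weeks.

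Of the receptor and its signalling, 3 of 10 measured genes rose with age in the averaged contrast, while 1.31% of all probe sets did, and none fell. They were Socs3, a cytokine-induced inhibitor of Janus kinases (log2 difference 1.21, adjusted p = 0.0018), Jak1 (0.5, adjusted p = 0.01) and Irf9 (0.39, adjusted p = 0.019). Irf9 averaged 382 ± 67.4 in NOD, 379 ± 19.7 in NON and 494 ± 59.4 in C57 at 4 weeks and 323 ± 58, 268 ± 66.8 and 369 ± 33.5 in the same strains at 2 weeks. It was also lower in NON than in C57 over both ages (-0.42, adjusted p = 0.031). Of the genes that induce interferon 2 of 13 rose with age, Tlr7, a sensor of single-stranded RNA (0.8, adjusted p = 0.00013), and Ikbke, a kinase that activates interferon regulatory factors (0.84, adjusted p = 0.037). Ikbke was lower in NON (-1.73, adjusted p = 0.00018) and in NOD (-1.23, adjusted p = 0.0077) than in C57 over both ages, with means of 86.2 in NOD, 43.1 in NON and 174 in C57 at 4 weeks.

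Of 32 other interferon-stimulated genes, 9 rose with age in the averaged contrast, as did 1.31% of all probe sets, and none fell. The median log2 difference of the 32 was 0.38, with all of them above 0. The largest were Ifi27l2a (0.99, adjusted p = 0.0002), the nucleic acid sensor Zbp1 (0.77, adjusted p = 0.0028), the oligoadenylate synthetase Oas1a (0.66, adjusted p = 0.0026) and Xaf1 (0.58, adjusted p = 0.049). Over both ages 10 of the 32 differed between NON and C57, 9 of them lower in NON (2.71% of all probe sets were), led by Tor3a (-0.96, adjusted p = 1.3e-05), Ifi27l2a (-0.94, adjusted p = 0.0024), Xaf1 (-0.93, adjusted p = 0.0049) and Sp100 (-0.92, adjusted p = 0.0017). All 10 that differed between NOD and C57 were lower in NOD (2.94% of all probe sets were), led by Trim30a (-1.22, adjusted p = 2.6e-05) and Xaf1 (-0.94, adjusted p = 0.0045). Trim30a alone of the list was set apart in NOD from the controls at 4 weeks (-1.56, adjusted p = 0.0011).

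Of 9 genes induced mainly by interferon-gamma, 4 rose with age, against 1.31% of all probe sets, Gbp6 (1.79, adjusted p = 0.0028), Cxcl9 (1.01, adjusted p = 0.0046), Gbp2 (0.64, adjusted p = 0.011) and Igtp (0.64, adjusted p = 0.0022). In this list Cxcl9 (1.14, adjusted p = 0.0076), Cxcl10 (1.09, adjusted p = 0.0081) and Gbp2 (0.76, adjusted p = 0.011) were higher in NOD than in C57 over both ages, as were 2.31% of all probe sets, and 0 of 9 passed between NON and C57, where 4.71% of all probe sets passed. None of the 4 enzymes of ISG15 conjugation passed in the age contrast, where Uba7, the activating enzyme, had 0.25 (adjusted p = 0.27).

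Cell type markers moved with age and strain in the same samples. All 7 measured T cell markers rose with age in the averaged contrast. Among them were Cd4 (log2 difference 1.05, limma adjusted p = 0.0014) and Cd8b1 (1.04, adjusted p = 0.0017). In the same contrast 4 of 5 NK cell markers and 2 of 7 B cell markers rose. The counts were 1 of 9 for monocytes and macrophages and 1 of 8 for plasmacytoid dendritic cells, while 1.31% of all probe sets rose. By direction alone, all 9 monocyte and macrophage markers lay above 0 (median log2 difference 0.49), as did 5 of 7 B cell markers (0.11). Of 8 neutrophil markers, 5 fell, led by Mpo (-1.88, adjusted p = 1e-06), while 1.88% of all probe sets fell. The summed signal of the T cell markers ran from 5320 to 7080 in NOD, 3640 to 4470 in NON and 6190 to 9160 in C57 at 4 weeks, and from 2970 to 5800 in NOD, 792 to 2350 in NON and 3590 to 7660 in C57 at 2 weeks. T cell markers were also lower in NON than in C57 over both ages (6 of 7, against 2.71% of all probe sets). In NOD 2 of 7 were lower than in C57, against 2.94%. Other markers were higher in NON than in C57 over both ages, as were 2% of all probe sets. Neutrophils had 3 of 8 higher (median log2 difference 0.6), erythroid cells 2 of 5 (1.37) and monocytes and macrophages 1 of 9 (0.48). NK cells had 1 of 5 higher (-0.14) and pancreatic acinar cells 1 of 3 (0.16). Plasmacytoid dendritic cells had 1 of 8 lower (-0.21). In NOD, 3 of 9 monocyte and macrophage markers were higher and 1 lower than in C57 (0.64). Erythroid markers had 1 of 5 higher (0.56), NK cell markers 1 of 5 (0.05), and B cell markers had 1 of 7 lower (-0.4). Plasmacytoid dendritic cell markers had 1 of 8 higher and 1 lower (-0.04). Of all probe sets, 2.31% were higher and 2.94% lower in NOD than in C57. The summed signal of the erythroid markers ran from 1930 to 6140 in NOD, 1650 to 9060 in NON and 843 to 3320 in C57 at 4 weeks, and from 974 to 5980, 2180 to 9690 and 1150 to 2610 in the same strains at 2 weeks, and 0 of 5 passed in the age contrast. The summed signal of the neutrophil markers ran from 28200 to 49900 in NOD, 53700 to 80600 in NON and 21500 to 37600 in C57 at 4 weeks, and from 57000 to 121000, 49800 to 96200 and 60200 to 81800 in the same strains at 2 weeks. The summed signal of the NK cell markers ran from 1760 to 4620 in NOD, 4210 to 5770 in NON and 2190 to 4010 in C57 at 4 weeks, and from 1770 to 3220, 945 to 3060 and 1370 to 3440 in the same strains at 2 weeks. Sums over the monocyte and macrophage markers had medians of 16800 in NOD, 12500 in NON and 9380 in C57 at 4 weeks. At 2 weeks these medians were 8700, 9960 and 6180, and the ranges of the ages overlapped in each strain. The sum of the plasmacytoid dendritic cell markers had a median of 8600 in NOD, 10500 in NON and 9750 in C57 at 4 weeks. At 2 weeks it was 8370, 8500 and 9880 in the same strains, and the ranges of the ages overlapped in each strain. Spib made the largest part of this sum, with means of 2650 in NOD, 4640 in NON and 4370 in C57 at 4 weeks. At 2 weeks the Spib means were 3420, 3920 and 5370. Siglech, another marker of this list, ran differently, with means of 1470 in NOD, 1100 in NON and 697 in C57 at 4 weeks. Its means at 2 weeks were 848, 858 and 629. Taken singly, 7 of the 8 plasmacytoid dendritic cell markers lay above 0 in the averaged age contrast (median log2 difference 0.32). No marker of the T cell, NK cell, neutrophil, B cell, monocyte or plasmacytoid lists had a group mean under 50. The part of these cell types in the differences of the effector genes was not tested.

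As a sign of RNA quality, the Gapdh probe sets at the 3' and 5' ends were compared. The 3'/5' ratio ran from 0.76 to 1.3 in NOD, 0.97 to 3.15 in NON and 0.8 to 2.4 in C57 at 4 weeks, and from 0.74 to 1.06, 0.75 to 4 and 1.02 to 2.17 at 2 weeks. Its part in the differences was not tested. Within groups, the mean of the members had a median correlation of 0.41 with the NK cell markers and 0.41 with the interferon-gamma induced genes. It was 0.18 with the other interferon-stimulated genes, 0.15 with the T cell markers and -0.06 with the neutrophil markers, over the same 30 mice. With the age and strain differences of the groups left in, the medians were 0.7 for T cell markers and -0.68 for neutrophil markers. They were 0.62 for NK cell markers, 0.56 for interferon-gamma induced genes and 0.47 for other interferon-stimulated genes.

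**Figure D4:**
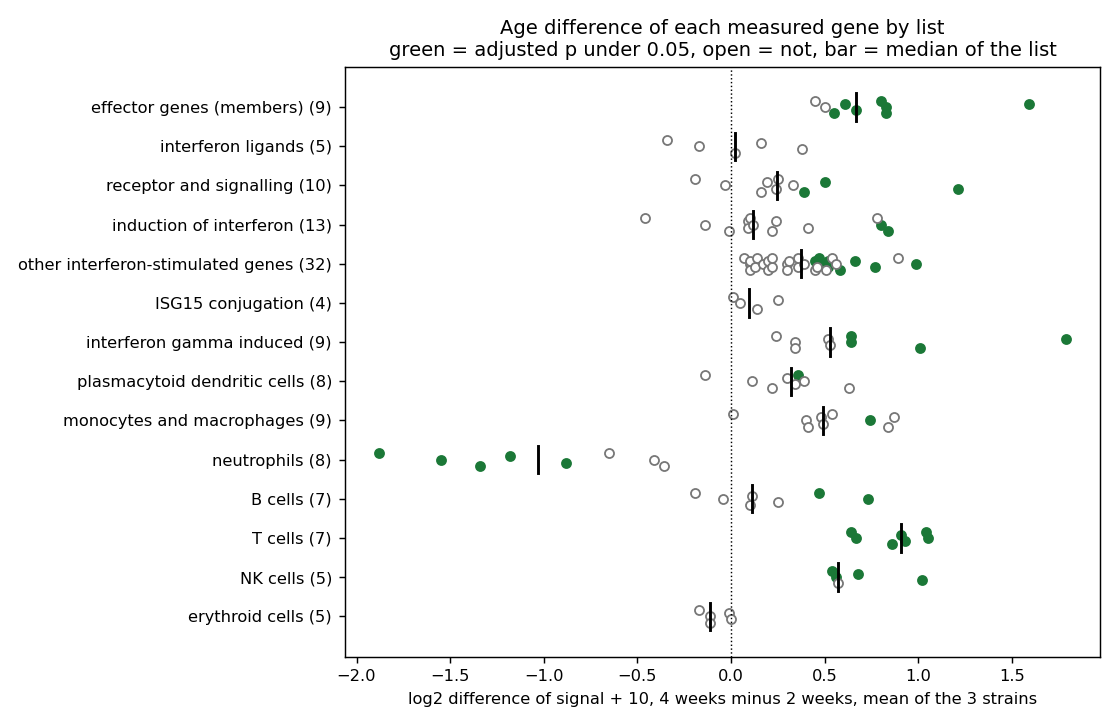
Log2 difference of signal + 10 between 4 and 2 weeks, averaged over the 3 strains (x axis), for each measured gene of the effector genes, the other pathway lists and the cell type markers (rows, number of genes in brackets). Green points have an adjusted p under 0.05 and bars are medians, which were 0.67 for the effector genes, 0.38 for other interferon-stimulated genes, 0.02 for the ligands and 0.91 for T cell markers.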

How the data were processed

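The values deposited by the authors are linear intensity values, the MAS 5.0 signals, computed with default settings and global scaling. Their methods give a trimmed mean of 100, and the deposited arrays have one of 250. The 430A and 430B arrays of each of 30 mice were joined (60 arrays, 45037 probe sets), and probe sets that reached a signal of 50 in 5 or more mice were tested (38293). The median signal of an array lay between 84.8 and 125.6 for 430A and between 125.8 and 169.3 for 430B, and the number of arrays limits the precision.

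Signals were compared as log2(signal + 10), which understates differences of dim genes, with limma 3.58.1 in R 4.3.3 and p-values adjusted by Benjamini-Hochberg across all those tested. Strains were tested on the 15 mice of an age, ages on the 10 mice of a strain, and the difference of age changes and the averaged contrasts on all 30. Ratios are of mean signals. The labels do not say that mice of a group came from separate litters, and p-values measure the spread between mice. The members and lists were chosen with earlier results of these data known. All member probe sets are named, with, from each other list, up to 4 genes that passed in a comparison or up to 2 with the largest difference, and the 10 probe sets most like the members. Genes are named from the arrays' annotation, updated through RefSeq (GRCm38.p6), from which the promoter windows were taken.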

Additional observations from a re-analysis of the deposited data

Results flagged for a closer look

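In 4 of 60 groups of 5 mice, 1 mouse lay far from the others by Dixon's test, which chance gives in about 1 of 20 groups. For Ifit2 in NON mice of 4 weeks, replicate 1 had a signal of 157.6, while the next mouse had 114. The other 3 concern the dim second probe set of Rtp4, where replicate 1 of C57 at 4 weeks had 20, replicate 3 of NOD at 2 weeks had 37.3 and replicate 5 of NON at 2 weeks had 31.6, all under the minimum of 50.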

How the results depend on the processing

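Of 9 member probe sets, those that passed kept the direction of their difference under every alternative tried. Rtp4 alone passed the strain test at 4 weeks, and the count went to 0 with arrays centred on the median, with quantile normalisation and with a replicate block, and to between 0 and 1 when 1 mouse was left out. At 2 weeks the count of 0 became 1 (Rtp4) with a pseudocount of 50, with centred arrays and with all 30 mice in 1 fit. The age change in NOD, NON and C57, 0 each, became 1 (Rtp4) in the 30-mouse fit, where 56, 560 and 176 probe sets passed in place of 6, 23 and 41. It also became 1 in NOD with a pseudocount of 50, and ran from 0 to 1 in C57, with Rtp4 passing without replicate 3 of 2 weeks. NOD against the controls stayed at 0 at both ages under every setting, as did the difference of age changes. The averaged age change called 6 to 8 with 1 mouse left out, and 6 to 7 in the other settings. NOD minus C57 over both ages called 2 in place of 1 with centred arrays, quantile normalisation or the replicate block (Irf7 added), and 1 to 2 with 1 mouse left out. NON minus C57 called 2 to 4 with 1 mouse left out.

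Differences near 0 changed sign. Mx1 in NOD minus C57 at 4 weeks became 0.01 with a pseudocount of 50 and ran from -0.19 to 0.19 with 1 mouse left out. Over such fits, NOD minus C57 ran from -0.21 to 0.13 for Ifit3 and from -0.48 to 0.04 for Oasl2 at 2 weeks and from -0.01 to 0.36 for Isg15 at 4 weeks. Usp18 ran from -0.44 to 0.02 in NON minus C57 at 2 weeks and from -0.06 to 0.28 in the age change of NON. NOD was above NON at 4 weeks for 7 to 9 of the 9, depending on the setting.

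The labels do not say whether same-numbered mice of different groups share more than a number. The correlation of their deviations from the group means ran from -0.15 to 0.19 (median 0.04), and in 29 of 75 comparisons of a mouse with another group it correlated best with the mouse of its own number, where chance gives 1 in 5. With the replicate block the age contrasts of single strains called 0, the strain tests 0 at both ages, and the averaged age change 6 in place of 7. Signals of most members lie within a few times the minimum of 50, which limits small differences.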

Other observations

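When the group means were left in, a ranking chosen after the values had been seen, the probe sets most like the mean of the 9 genes over the 30 mice were Parp9 (r = 0.867), an interferon-induced ADP-ribosyltransferase family gene, Irf9 (0.85) and Slfn8 (0.844), followed by Cxcr3 (0.828), the receptor of Cxcl9 and Cxcl10 on activated T and NK cells. Ifit1bl1, a relative of Ifit1, was also among the first 10 (0.827) and was higher at 4 weeks in the averaged contrast (log2 difference 1.34, limma adjusted p = 6.4e-06), as was Slfn1 (0.9, adjusted p = 2.2e-05). These values hold the age and strain differences of the groups as well as the spread between mice. Of 35 promoter windows of the other interferon-stimulated genes, 12 held the response element core.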
